A study of Mus musculus with 8 samples.

Results

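The clustered protocadherins are cell surface proteins of the cadherin family, encoded by 3 gene clusters named alpha, beta and gamma. They were taken here as all genes of the deposited count file whose mouse symbol is Pcdha, Pcdhb, Pcdhga, Pcdhgb, Pcdhgc or Pcdhac followed by a number. That rule found 58 of 55573 genes, with 14 in the alpha cluster, 22 in the beta cluster and 22 in the gamma cluster. RNA came from C low-threshold mechanoreceptors (C-LTMRs), unmyelinated touch neurons of the dorsal root ganglia, which were sorted by their GFP. The adult mice were male bhlha9 KO, male WT, female bhlha9 KO and female WT, with 2 libraries in each group that the submitters call biological replicates. All groups carried the GFP used for sorting, and neither its driver nor the construction of the KO allele is given in the sources used here.

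In neurons, single protocadherin promoters of these clusters are chosen in each cell, so that neighbouring cells display different combinations on their surface. The proteins bind like to like between membranes, and this identity code is known for self-avoidance of neurites, for the survival of interneurons and for arrangement of axon terminals. Alpha and gamma transcripts join a variable first exon, which encodes the whole extracellular part, to constant exons that all members of the cluster share, while beta genes have no constant exons. The C-type genes at the ends of the alpha and gamma clusters are known to be expressed more uniformly between cells than the other members.

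All 58 genes lay on the plus strand of chromosome 18 in GRCm38. The alpha cluster ran from 36930184 to 37187661, the beta cluster from 37264938 to 37524479 and the gamma cluster from 37661793 to 37841873. The 14 alpha genes shared constant exons at 37156155 to 37156213, 37159265 to 37159353 and 37184946 to 37187657. The 22 gamma genes shared those at 37825021 to 37825079, 37833265 to 37833353 and 37839903 to 37841873. Each of the 22 beta genes was a single block of exon. The symbol Pcdha11 belonged to 2 identifiers, ENSMUSG00000007440 and ENSMUSG00000102206. RefSeq's Pcdha10 starts within the first of them and RefSeq's Pcdha11 within the second, so both are given by identifier here.

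The libraries held between 50919885 and 71956309 counts, and 3 counts stood for between 0.0421 and 0.0587 CPM (counts scaled to library size). Floors of this kind cover counting error only, since the amplified cDNA carried no molecular identifiers. Bhlha9, the targeted gene, stood at 0.156, 0.277, 0.47 and 0.253 CPM in the KO libraries, against 151, 161, 140 and 127 CPM in the WT libraries. Th, which marks C-LTMRs, stood between 2975 and 5357 CPM in all 8 libraries. Libraries differed in markers of other afferents. The summed level of 13 myelinated afferent markers was 6358 CPM in male KO 1, against 1254 to 2229 CPM in the other libraries. Nonpeptidergic markers summed to 467 CPM in male KO 2, against 86.8 to 215 CPM elsewhere, and peptidergic markers ranged between 794 CPM in female KO 2 and 2396 CPM in male KO 2. Bulk values cannot tell fewer cells that use a gene from less RNA per cell.

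The first question was what a count of an alpha or gamma member measured. Per the file header, a read that overlapped several genes was counted in each of them, so every read in a constant exon was counted for all members of its cluster. The 14 alpha members therefore stood close together, between 88.9 and 207 CPM over all libraries, and the 22 gamma members stood between 74.5 and 127 CPM. The lowest member of a cluster bounds the shared reads of that library from above. The lowest alpha member held between 5153 and 7918 counts, and the lowest gamma member between 4302 and 7301. Shared reads are given below as the count of that lowest member, and can be fewer. Seen against the median alpha member, they made up at most 93.9% to 97.6% of its count. For the median gamma member they made up at most 98.1% to 99.9%. Up to 7 gamma members had exactly the lowest count of their library. A plain sum over the alpha genes was 6.05 to 8.8 times the total with shared reads counted once. For the gamma genes it was 13.4 to 17.0 times that total. Where the lowest member has reads of its own, the total is too low and these ratios are too high. The reads of a member above the lowest member of its cluster are called its own reads below. They leave out reads specific to the lowest member, which were subtracted as well. In 13 members overlapped by a gene of the opposite strand, they may include reads of that gene. Pcdhgb1 and Pcdhga4 also share 1038 bases outside the constant exons, and Pcdhgb4 and Pcdhga8 share 108, so a read there was counted in both. In a library 1 or 2 alpha members lay within 10 counts of the lowest, and 2 to 11 gamma members did.

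**Figure D1:**
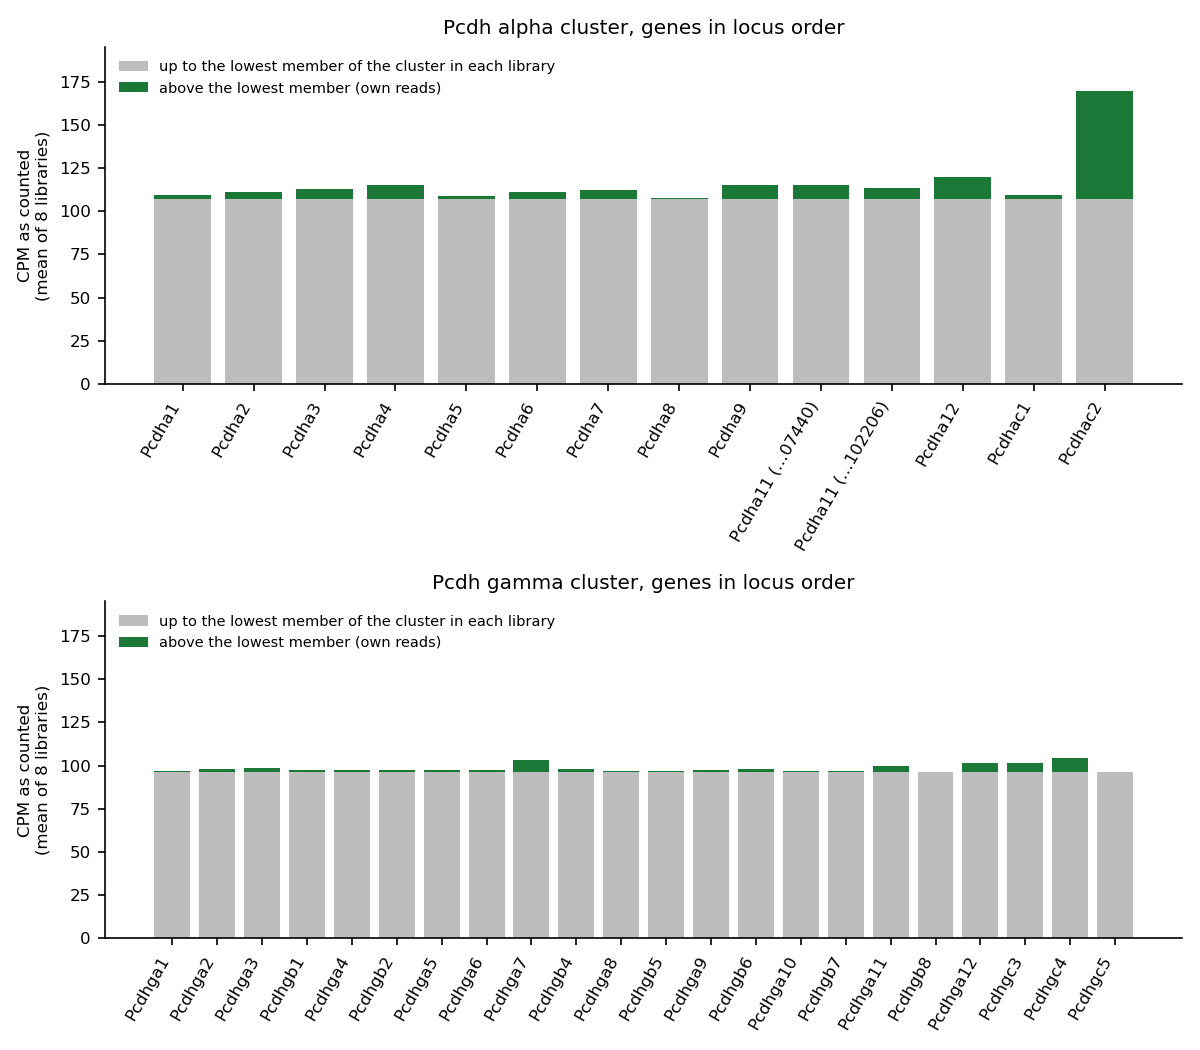
Mean CPM of each alpha and gamma member over the 8 libraries, in locus order, with grey for the part up to the lowest member of the cluster in each library and green for the part above it. Pcdhac2 has the tallest green part, at 62.6 CPM, and the other members differ little in total height.

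Pcdhac2, the last gene of the alpha cluster and a C-type isoform, held the largest share of what set the alpha members apart. Its own reads stood at 63.5 and 71.2 CPM in the male KO libraries, against 49.3 and 69.2 CPM in the male WT libraries. In females they stood at 64.8 and 95.4 CPM in the KO libraries, against 53.2 and 34.2 CPM in the WT libraries. Pcdhac2 led the alpha cluster in all 8 libraries, with 34.1% to 58.1% of the cluster's own reads. Per kilobase of its own exon it reached 11.3 to 31.5 CPM, and the second member by this measure, Pcdha12, averaged 5.13 CPM per kilobase over the 8 libraries. The KO and WT libraries of males overlapped on the scale of own reads, and those of females did not.

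The other alpha C-type gene, Pcdhac1, was low. Its own reads stood at 4.92 and 4.07 CPM in the male KO libraries, against 6.29 and 0 CPM in the male WT libraries. Levels in females were 0.137 and 1.31 CPM in the KO libraries, against 0.723 and 1.46 CPM in the WT libraries. The groups overlapped in both sexes.

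Among the alternate alpha members, which vary from cell to cell, Pcdha12, Pcdha9 and the Pcdha11 of identifier ENSMUSG00000007440 followed Pcdhac2. Pcdha12 own reads stood at 17.6 and 11.3 CPM in the male KO libraries, against 13.6 and 13.0 CPM in the male WT libraries. The female KO libraries held 11 and 20.6 CPM, against 5.64 and 8.79 CPM in the female WT libraries. The male libraries overlapped, while both female KO libraries were above both female WT libraries. Pcdha9 own reads stood at 13.0 and 13.6 CPM in the male KO libraries, against 9.1 and 13.7 CPM in the male WT libraries. In females they stood at 1.41 and 5.88 CPM in the KO libraries, against 7.27 and 2.74 CPM in the WT libraries, and the groups of both sexes overlapped.

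ENSMUSG00000007440 was the 1 member whose own reads were higher in every KO library than in every WT library of its sex and of the other sex. They stood at 18.1 and 9.85 CPM in the male KO libraries, against 6.69 and 4.26 CPM in the male WT libraries. Levels in females were 8.43 and 11 CPM in the KO libraries, against 4.29 and 2.49 CPM in the WT libraries. On own counts the edgeR log2 fold change across both sexes was 1.44 (SE 0.34, unadjusted p = 0.00309), which did not pass after Benjamini-Hochberg adjustment over all tested genes (edgeR adjusted p = 1). Its count as deposited, with shared reads left in, overlapped between KO and WT in each sex. For edgeR values, SE in this report is worked back from the fold change and the F statistic, and is not a standard error of the fit. The second Pcdha11, ENSMUSG00000102206, is overlapped on the opposite strand over 3338 of its 4675 own bases. Its own reads were highest in male WT 1, at 21.6 CPM, where the overlapping Gm10545 was also highest, at 23.6 CPM. The counting did not use strand, so reads of such a pair cannot be told apart where the genes overlap.

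Own reads of the remaining alpha members were fewer. Over the 12 alternate members together they came to 71.8 and 84.6 CPM in the male KO libraries, against 89.1 and 68.9 CPM in the male WT libraries. The female KO libraries held 61.8 and 67.5 CPM, against 59.7 and 37.8 CPM in female WT. In each library 12 or 13 of the 14 alpha members had at least 10 own counts. Pcdha8 had the fewest, with an average of 0.461 CPM.

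The gamma cluster had no constant leader. Its 4 highest members by mean level were Pcdhgc4, Pcdhga7, Pcdhga12 and Pcdhgc3. Own reads of Pcdhgc4, a C-type isoform that mouse studies tie to the survival of neurons, stood at 7.88 and 14.5 CPM in the male KO libraries, against 2.92 and 9.63 CPM in the male WT libraries. In females they stood at 5.36 and 12.2 CPM in the KO libraries, against 5.79 and 5.26 CPM in the WT libraries. The groups overlapped in both sexes. Pcdhgc4 led the gamma members in male KO 2, male WT 2 and female KO 2, while Pcdhga7, Pcdhgc3 and Pcdhga11 led the others.

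Pcdhga7, a variable gamma A member, stood at 16.6 and 4.89 CPM of own reads in the male KO libraries, against 0.492 and 5.61 CPM in the male WT libraries. Levels in females were 3.8 and 5.66 CPM in the KO libraries, against 14.6 and 3.96 CPM in the WT libraries. Single libraries, male KO 1 and female WT 1, held its highest values. Gm37165, on the opposite strand, overlaps 536 of its bases. It was also highest in those libraries, at 3.5 CPM in male KO 1 and 3.0 CPM in female WT 1. Elsewhere it stood at 0.127 to 1.4 CPM. Without strand, reads in the overlap cannot be told apart, but each was counted in both genes. Gm37165 had 202 counts in male KO 1 and 170 in female WT 1, against 958 and 830 own counts of Pcdhga7. Most own reads of Pcdhga7 in those libraries thus lay outside the overlap. Pcdhga12 own reads stood at 9.3 and 4.18 CPM in the male KO libraries, against 2.51 and 2.99 CPM in the male WT libraries. The female KO libraries held 4.15 and 1.11 CPM, against 10.6 and 5.81 CPM in the female WT libraries. Pcdhga12 was thus above WT in both male KO libraries and below WT in both female KO libraries.

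Pcdhgc3, the first of the gamma C-type genes, was the 1 member whose own reads were lower in every KO library than in every WT library. They stood at 1.42 and 5.05 CPM in the male KO libraries, against 6.22 and 5.34 CPM in the male WT libraries. In females they stood at 4.15 and 3.66 CPM in the KO libraries, against 5.17 and 9.34 CPM in the WT libraries. The edgeR log2 fold change of its own counts across both sexes was -0.86 (SE 0.45, unadjusted p = 0.0915, edgeR adjusted p = 1). The antisense gene BC037039 overlaps 1559 of its own bases. BC037039 stood at 0.832, 2.36, 2.15 and 2.61 CPM in the KO libraries, against 3.23, 2.88, 4.39 and 5.38 CPM in the WT libraries. The pair thus moved together, and without strand reads in the overlap cannot be told apart. In every library Pcdhgc3 had more own counts than BC037039 had counts, so part of its own reads lay outside the overlap. Pcdhgc5, the last C-type gene, had between 5 and 46 own counts in any library and averaged 0.343 CPM.

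By subgroup, the 12 gamma A genes held 49.8% to 66.7% of the gamma own reads, the 7 gamma B genes 6.83% to 17.8% and the 3 C-type genes 19.5% to 40.5%. Pcdhgb8 had the lowest own level, at an average of 0.00882 CPM. Between 12 and 20 of the 22 gamma members had at least 10 own counts in a library. Per kilobase, own reads summed over the alpha members came to 26.2 to 57.7 CPM. The shared reads over the alpha constant exons came to at most 31.1 to 48.3 CPM. In the gamma cluster own reads summed to 9.99 to 21.6 CPM per kilobase, against at most 35.2 to 53.5 CPM for the shared reads.

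**Figure D2:**
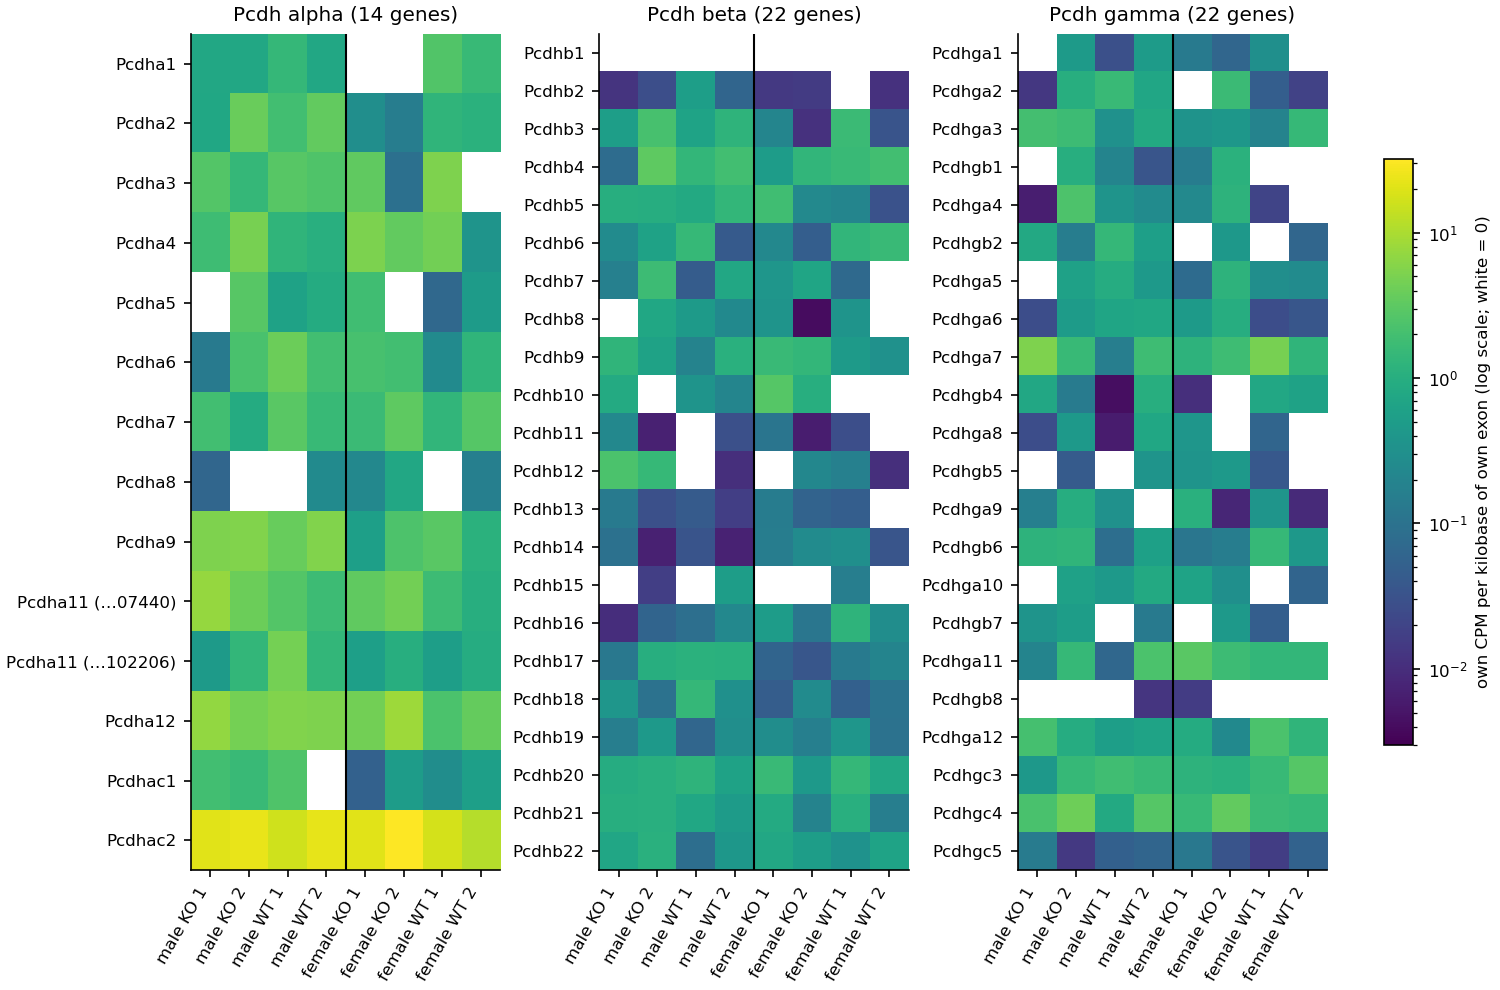
Own reads of all 58 members in each library, in CPM per kilobase of own exon on a log colour scale, with KO libraries left of WT libraries in each sex and white for 0. The bottom row of the alpha panel, Pcdhac2, is high in all 8 libraries, from 11.3 to 31.5 CPM per kilobase, whereas beta and gamma rows change from library to library.

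The beta members share no constant exons, so their counts were used as deposited. Pcdhb21 and Pcdhb22 share 455 bases of exon on the same strand, where a read was counted in both genes and entered the beta sum 2 times. Their sum was 40.1 and 65.8 CPM in the male KO libraries, against 43.6 and 43.8 CPM in the male WT libraries. Levels in females were 48.3 and 28.2 CPM in the KO libraries, against 47.6 and 26.4 CPM in the WT libraries. In every library but 1, the member in the lead held 13.8% to 18.1% of the beta reads. The exception was female WT 2, where Pcdhb4 held 27.5%. The 5 members that led a library were Pcdhb12, Pcdhb4, Pcdhb18, Pcdhb10 and Pcdhb16. Between 11 and 18 of the 22 beta genes had at least 10 counts in a library. Pcdhb1 had 0 counts in all libraries and was not tested.

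Pcdhb4 had the highest mean level of the beta cluster, and its range was wide. It stood at 0.294 and 11.8 CPM in the male KO libraries, against 5.2 and 7.28 CPM in the male WT libraries. The female KO libraries held 1.88 and 5.08 CPM, against 5.98 and 7.24 CPM in the female WT libraries. The male KO libraries lay on either side of both male WT libraries, and both female KO libraries lay below the female WT libraries. The log2 fold change in females was -0.92 (SE 1.33, edgeR adjusted p = 1).

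Pcdhb22, Pcdhb20 and Pcdhb21 came next by mean level. Pcdhb22 stood at 4.82 and 7.26 CPM in the male KO libraries, against 0.571 and 2.69 CPM in the male WT libraries, without overlap. In females they stood at 5.19 and 3.52 CPM in the KO libraries, against 2.27 and 4.34 CPM in the WT libraries, with overlap. Its log2 fold change in males was 1.89 (SE 0.85, unadjusted p = 0.0624 by edgeR). Pcdhb20 was the steadiest of the beta members with at least 10 counts in all libraries. It stood at 3.33, 3.76, 5.83 and 1.56 CPM in the KO libraries, against 4.44, 2.26, 5.19 and 2.8 CPM in the WT libraries. Pcdhb21 stood at 4.66 and 4.95 CPM in the male KO libraries, against 3.55 and 2.33 CPM in the male WT libraries. Levels in females were 4.17 and 0.884 CPM in the KO libraries, against 4.99 and 0.744 CPM in the WT libraries, where the 2 libraries of each genotype differed more than the genotypes.

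On counts as deposited, which in the alpha and gamma clusters include the shared reads, libraries of the same group differed most in the beta cluster. The median biological coefficient of variation, the spread between libraries of a group beyond counting that edgeR fitted, was 99.0% for the 21 tested beta genes and 51.4% for all 22013 tested genes. For the alpha and gamma genes as deposited it was 16.8% and 19.4%. Own reads varied far more than deposited counts: among members with at least 10 own counts everywhere, the highest library exceeded the lowest by a median of 9.71 times in the alpha cluster, 12.7 times in the beta cluster and 10.7 times in the gamma cluster. As deposited, the same ratio had a median of 1.52 in each of the alpha and gamma clusters.

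KO was compared with WT in each sex by the quasi-likelihood F test of edgeR over all 22013 tested genes, which included 57 of the 58 members. In males 0 of 57 members passed an adjusted p of 0.05, where 0.00454% of all tested genes passed, which is 1 gene, Bhlha9. In females 0 of 57 members passed, against 0.00454% of all tested genes. Across both sexes 0 of 57 passed, again against 0.00454%. For the difference between the sexes in the KO effect 0 of 57 passed, against 0.0% of all tested genes. At an unadjusted edgeR p below 0.05 there was 1 member in males, against 3.5% of all tested genes. There were 2 members in females, against 3.81%, 0 across both sexes, against 3.56%, and 2 for the difference between the sexes, against 4.73%. DESeq2, run on the same counts, passed 1 member in males, where it passed 0.754% of all tested genes, and 1 in females, where it passed 0.759%. It passed 0 members across both sexes, against 0.236%, and 0 for the difference, against 0.986%. At an unadjusted DESeq2 p below 0.05 there were 2 members in males, against 5.73% of all tested genes, 4 in females, against 6.46%, 4 across both sexes, against 5.62%, and 3 for the difference, against 7.1%. A test that members miss does not show that KO and WT were alike.

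Pcdhb12 was the member that DESeq2 passed in males. Its counts were 411 and 290 in the male KO libraries, against 0 and 2 in the male WT libraries. In females they were 0 and 48 in the KO libraries, against 29 and 2 in the WT libraries. The male groups stood far apart, and the female groups overlapped. Summed over the libraries and scaled to their sizes, the male KO to WT ratio was 362, with a 95% exact interval of 99.9 to 2997 that covers counting error only. The log2 fold change in males was 8.35 by edgeR (SE 2.84, unadjusted p = 0.0229, adjusted p = 1) and 8.54 by DESeq2 (SE 2.2, adjusted p = 0.0178). The authors' deposited table for males lists 150 genes, and no member but Pcdhb12 is in it. That table gives Pcdhb12 a log2 fold change of 1.9 (SE 0.37, adjusted p = 9.09e-05). The submitters name an earlier release of DESeq2 than the one used here, and their fit was not rerun. Their fold change and SE may therefore be on another scale than the values above, and the sizes were not compared. The difference between the sexes had a log2 value of 8.03 (SE 3.32, unadjusted p = 0.048, edgeR adjusted p = 0.98).

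An antisense gene model, Gm37446, overlaps 1927 of the 3034 bases of Pcdhb12. Gm37446 had 263 and 190 counts in the male KO libraries, against 0 and 2 in the male WT libraries. The female KO libraries had 2 and 2, against 0 and 12 in female WT. A read in the overlap was counted in both genes. Pcdhb12 had more counts than Gm37446 in the male KO libraries, at 411 and 290, so part of its reads there lay outside the overlap. In the male WT libraries Pcdhb12 had 0 and 2 counts over its whole length. The summed myelinated afferent markers also moved with the male groups, at 6358 and 2229 CPM in the KO libraries, against 1569 and 1390 CPM in the WT libraries. Of those 13 markers 12 had a positive log2 fold change in males and none was at 0 counts in a male library. Without overlap 7 of the 13 were higher in KO, where 14.5% of all tested genes were. An unadjusted edgeR p below 0.05 was reached by 6 of the 13, against 3.5% of all tested genes. The nonpeptidergic afferent list summed to 191 and 467 CPM in the male KO libraries, against 149 and 165 CPM in the male WT libraries, with 7 of 8 tested markers positive. Peptidergic markers summed to 1663 and 2396 CPM in the male KO libraries, against 934 and 1005 CPM in the male WT libraries, with 8 of 10 positive. In both lists the male KO libraries were above the male WT libraries. Vascular and fibroblast markers came to 67.4 and 20.4 CPM in male KO, against 15.6 and 8.24 CPM in male WT, with 7 of 7 positive. Of 17 glia and Schwann cell markers 14 were positive in males, and 11 were higher in KO without overlap, where 14.5% of all tested genes were. The sums of the glia and Schwann cell markers overlapped, at 5797 and 5852 CPM in KO, against 5799 and 3742 CPM in WT. C-LTMR markers summed to 5363 and 7832 CPM in male KO, against 8351 and 8616 CPM in male WT, with 12 of 14 negative. Without overlap 7 of the 14 were lower and 1 was higher, where 14.5% of all tested genes were in each direction. The part of these cells in the Pcdhb12 result was not tested.

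Pcdhb10 was the member that DESeq2 passed in females. Its counts were 401 and 201 in the female KO libraries, against 0 and 0 in the female WT libraries. In males they were 143 and 0 in the KO libraries, against 66 and 37 in the WT libraries. The female groups did not overlap, and the 2 male KO libraries enclosed the male WT libraries. With a floor of 3 counts over the WT group, Pcdhb10 was at least 197-fold higher in female KO. The fitted log2 fold change in females, which depends on the prior count when a group is at 0, was 11.36 by edgeR (SE 3.49, unadjusted p = 0.0186, adjusted p = 1) and 10.77 by DESeq2 (SE 2.48, adjusted p = 0.00406). The authors' deposited table for females lists 13 genes, and no member is among them. The difference between the sexes had a log2 value of -10.75 (SE 3.92, unadjusted p = 0.0353, edgeR adjusted p = 0.98). No gene model on the opposite strand overlaps Pcdhb10. Summed vascular and fibroblast markers moved with the female groups, at 6.83 and 14 CPM in the KO libraries, against 33.8 and 68.9 CPM in the WT libraries, and 5 of those 8 markers, Dcn, Cldn5, Col1a1, Pecam1 and Kdr, were at 0 counts in each female KO library, against 3 and 0 of them in the WT libraries. Peptidergic markers summed to 1746 and 794 CPM in the female KO libraries, against 1467 and 2190 CPM in the female WT libraries. Of the 10 tested, 8 had a negative log2 fold change in females, and the median was -1.56. Without overlap 7 of the 10 were lower in KO, where 15.1% of all tested genes were. An unadjusted edgeR p below 0.05 was reached by 5 of the 10, against 3.81% of all tested genes. Of 17 glia and Schwann cell markers 13 were negative in females and 5 lower without overlap, again beside 15.1%, while 12 of 14 C-LTMR markers were positive. The part of these lists in the Pcdhb10 result was not tested.

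**Figure D3:**
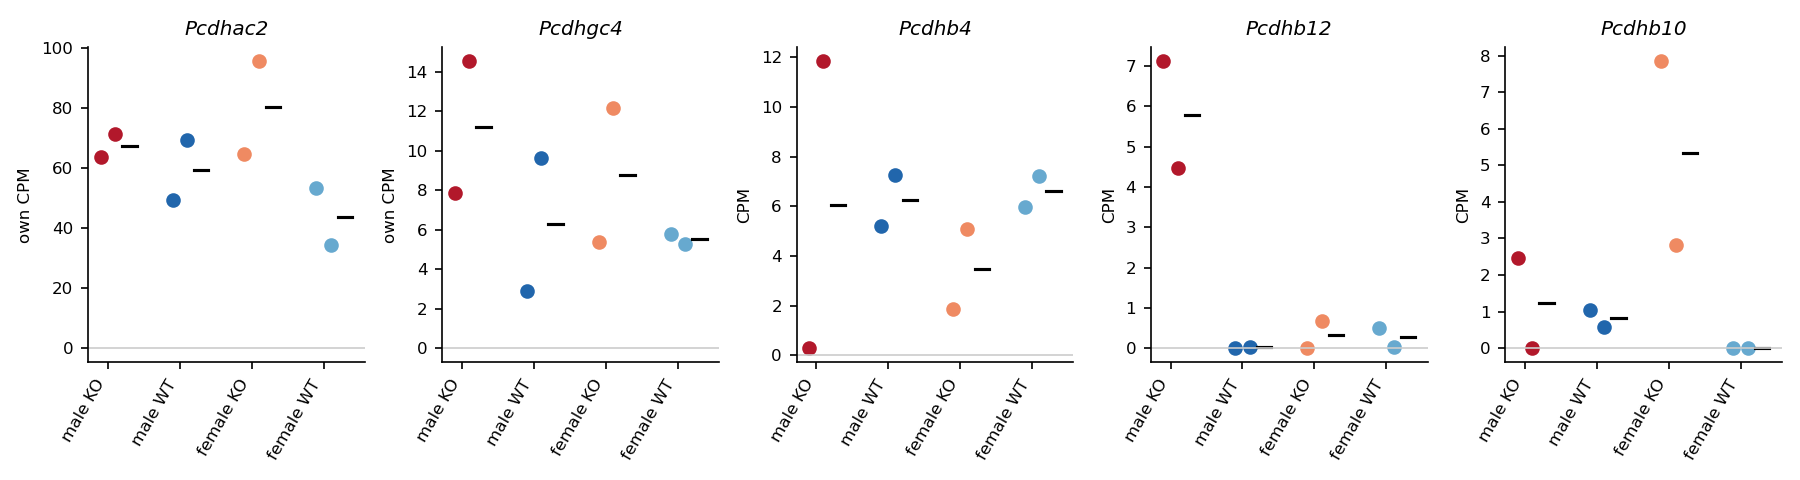
Level of 5 members in each library, as own CPM for Pcdhac2 and Pcdhgc4 and as CPM for the beta genes Pcdhb4, Pcdhb12 and Pcdhb10, with KO left of WT in each sex and a short line at each group mean (n = 2). Pcdhb12 is at 7.12 and 4.47 CPM in male KO, against 0 and 0.0314 CPM in male WT, and Pcdhb10 at 7.85 and 2.82 CPM in female KO, against 0 CPM in both female WT libraries.

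On counts as deposited, the other members with the lowest unadjusted edgeR p in each comparison were also beta genes. In males, Pcdhb2 had 2 and 5 counts in the KO libraries, against 97 and 11 in the WT libraries (log2 fold change -3.89, SE 2.05, unadjusted p = 0.102 by edgeR). In females, Pcdhb5 had 339 and 60 counts in the KO libraries, against 41 and 7 in the WT libraries (log2 fold change 3.16, SE 1.27, unadjusted p = 0.0429 by edgeR). In males, Pcdhb5 had 207 and 223 counts in the KO libraries, against 186 and 315 in the WT libraries. Pcdhb6 had 44 and 13 counts in the female KO libraries, against 291 and 380 in the female WT libraries (log2 fold change -3.42, SE 1.61, unadjusted p = 0.073 by edgeR). Its male groups were wide, with 57 and 151 counts in the KO libraries, against 360 and 10 in the WT libraries.

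Across both sexes the 3 members with the lowest unadjusted p by edgeR on counts as deposited were Pcdhb15, Pcdhb17 and Pcdhb16, all of them with negative log2 fold changes. By DESeq2 the lowest were Pcdhb10, with a log2 fold change of 5.41 (unadjusted p = 0.00489, DESeq2 adjusted p = 0.372), and Pcdhb12, with 4.27 (unadjusted p = 0.0156, DESeq2 adjusted p = 0.555). Pcdhb15 had 0, 3, 0 and 0 counts in the KO libraries, against 0, 94, 25 and 0 in the WT libraries, so that 1 WT library of each sex held its reads. Pcdhb17 had 33, 305, 14 and 12 counts in the KO libraries, against 329, 325, 36 and 58 in the WT libraries, and was lower in KO within each sex. Its log2 fold change across both sexes was -1.38 (SE 0.71, unadjusted p = 0.0893 by edgeR). Pcdhb16 had 3, 20, 135 and 43 counts in the KO libraries, against 29, 75, 372 and 93 in the WT libraries. The male Pcdhb16 groups did not overlap and the female groups did, and its log2 fold change was -1.73 (SE 0.9, unadjusted p = 0.0944 by edgeR).

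Members whose KO and WT libraries did not overlap were counted next, on CPM as deposited, beside the same share of all tested genes. In males 4 members, Pcdhac2, Pcdhb12, Pcdhb21 and Pcdhb22, were higher in both KO libraries, which is 7.02% against 14.5% of all tested genes. Another 3 were lower in males, Pcdhb2, Pcdhb16 and Pcdhb17, which is 5.26% against 14.5%. In females 6 members, all of them beta genes, were higher in both KO libraries, which is 10.5% against 14.2%, and 7 were lower, which is 12.3% against 15.1%. Pcdhb2, among the 6, had 2 and 3 counts in female KO, against 0 and 2 in female WT, at or under the floor of 3, so no direction can be read from it. Of all tested genes 4.77% stood apart in both sexes in opposite directions, as did 1 member as counted, Pcdhb2, or 1.75%. No member was higher in all 4 KO libraries than in all 4 WT libraries, or lower, where 0.936% and 0.895% of all tested genes were. On own CPM 1 member, ENSMUSG00000007440, was higher in all 4 and 1, Pcdhgc3, was lower in all 4, which is 1.75% each. The shares of all tested genes are of counts as deposited and are not matched to own CPM.

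As deposited, the alpha and gamma members barely differed between genotypes. In males the alpha log2 fold changes lay between -0.12 and 0.12 and the gamma ones between -0.02 and 0.12. In females 13 of 14 alpha members and 22 of 22 gamma members had negative values, with medians of -0.21 and -0.14. These values follow the shared reads, which averaged 106 ± 7.3 CPM in female KO and 124 ± 19.8 CPM in female WT for the alpha cluster (SD, n = 2 each). For the gamma cluster they averaged 94.2 ± 11.9 CPM in female KO and 104 ± 12.6 CPM in female WT (SD, n = 2 each). The beta log2 fold changes were spread wider, from -4.86 to 8.35 in males and from -6.77 to 11.36 in females. Over all 57 members the median was 0.02 in males and -0.14 in females, beside 0.02 and 0.00 over all tested genes. The female median was also -0.14 with the 2 members that had a group at 0 set to their bounds.

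With the shared reads subtracted, 0 of 56 members passed in any of the 4 comparisons by edgeR, and the lowest adjusted p was 0.979. Of the 22012 genes in that fit 0.00454% passed in males, in females and across both sexes, and 0.0% for the difference between the sexes. An unadjusted edgeR p below 0.05 was reached by 2 members in males, against 3.49% of all genes in that fit, and by 10 in females, against 3.84%. It was reached by 1 member across both sexes, against 3.57%, and by 6 for the difference between the sexes, against 4.73%. Among the 10 in females was Pcdhac2, with a log2 fold change of 0.87 on own counts (SE 0.32, unadjusted p = 0.0294, edgeR adjusted p = 1). As deposited, the value of Pcdhac2 in females was 0.15 (SE 0.2). Pcdha12 was also among them, at 1.13 (SE 0.45, unadjusted p = 0.0404, edgeR adjusted p = 1). On own CPM 9 of 57 members, or 15.8%, were higher in both male KO libraries and 6, or 10.5%, were lower, where all tested genes, as deposited, gave 14.5% each. In females 17 members, or 29.8%, were higher and 9, or 15.8%, were lower, where all tested genes gave 14.2% and 15.1%. The same value is subtracted from every alpha, or every gamma, member of a library, so these members shift together. No share of all genes given here is matched to that, and no excess among members can be read from it. In females the value subtracted in the alpha cluster averaged 106 CPM in KO and 124 CPM in WT. Subtraction sets the lowest member of each library to 0. Pcdha1 was that member in both female KO libraries, so its fitted value of -11.32 rests on 2 zeros made this way. Likewise Pcdhgb1, at 10.15, had 28 and 289 own counts in female KO, against 2 zeros made this way in female WT. Pcdhgb4, at -7.02, had 2 and 0 own counts in female KO, against 166 and 146 in female WT.

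**Figure D4:**
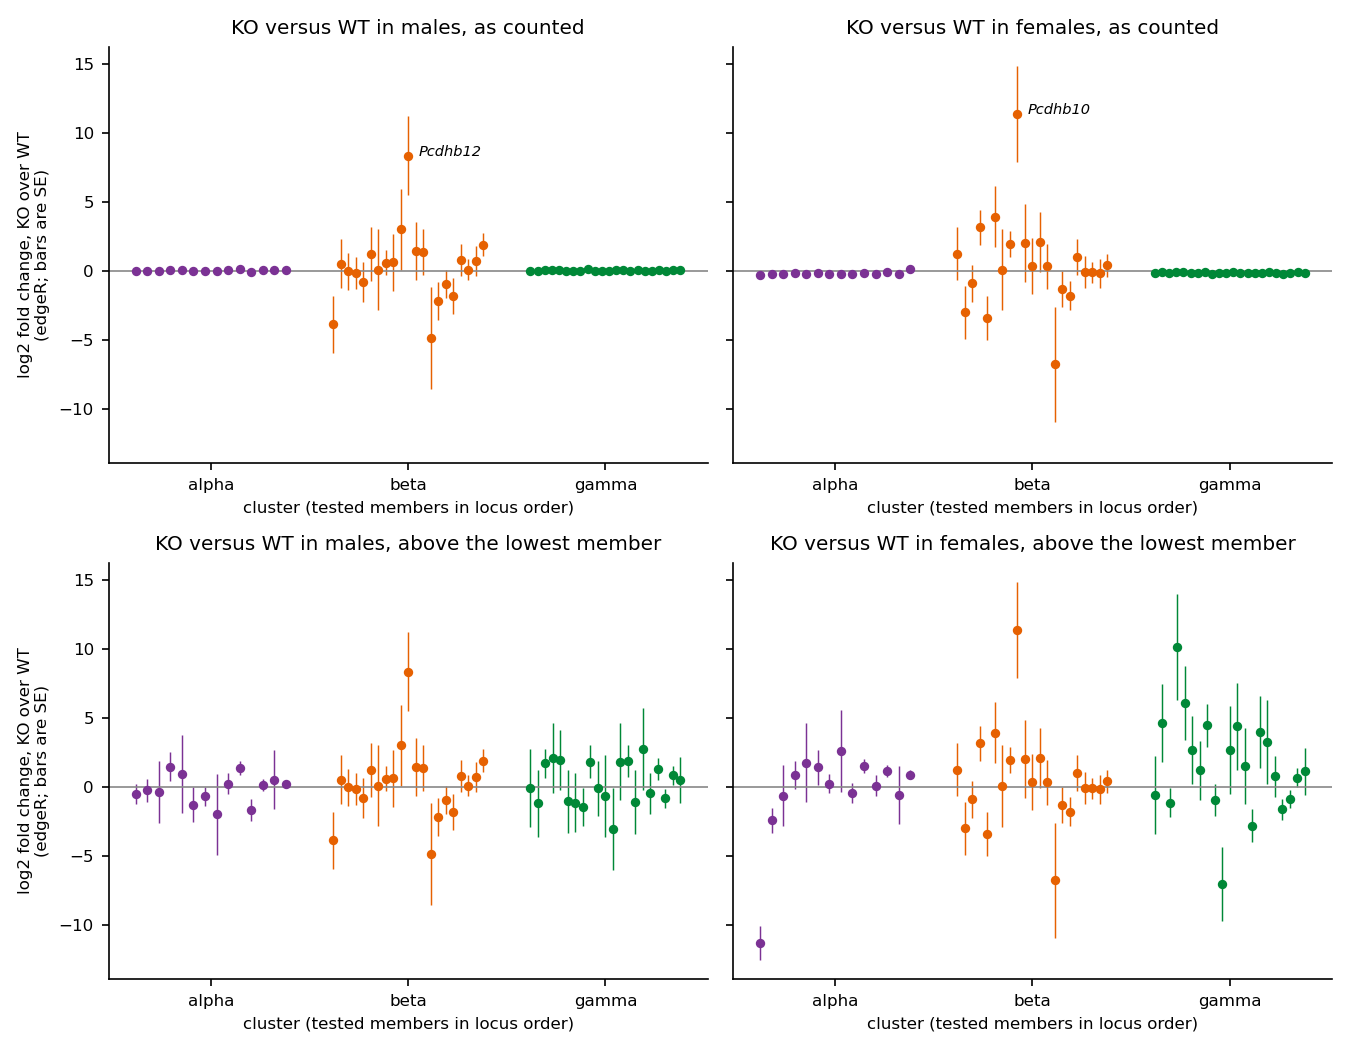
Log2 fold changes of KO over WT by edgeR for the tested members in locus order, as counted (top) and above the lowest member of the cluster (bottom), in males (left) and females (right). Bars are SE worked back from the fold change and the F statistic. As counted, alpha and gamma points lie between -0.29 and 0.15 while beta points reach 8.35 in males and 11.36 in females, and with shared reads subtracted all 3 clusters scatter widely.

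Cluster totals were taken with shared reads counted once. Reads specific to the lowest member were subtracted from every other member, so the alpha and gamma totals can be too low. The beta total is the plain sum of counts. No total is scaled to exon length, so levels are not compared between clusters. The alpha total averaged 249 ± 17.3 CPM in male KO and 240 ± 18.4 CPM in male WT, and 252 ± 33.9 CPM in female KO and 218 ± 48.3 CPM in female WT (SD, n = 2 each). The gamma total averaged 152 ± 36.9 CPM in male KO and 134 ± 12.0 CPM in male WT, and 139 ± 2.71 CPM in female KO and 148 ± 2.59 CPM in female WT. The beta total averaged 53.0 ± 18.2 CPM in male KO and 43.7 ± 0.109 CPM in male WT, and 38.2 ± 14.3 CPM in female KO and 37.0 ± 15.0 CPM in female WT. KO and WT libraries overlapped in each cluster and sex except for the gamma cluster in females, where both KO libraries were lower. The log2 ratios of KO to WT were 0.05, 0.28 and 0.19 in males for alpha, beta and gamma, and 0.21, 0.05 and -0.09 in females. No test was run on these ratios. Alpha own reads in females summed to 127 and 164 CPM in the KO libraries, against 114 and 73.4 CPM in the WT libraries.

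**Figure D5:**
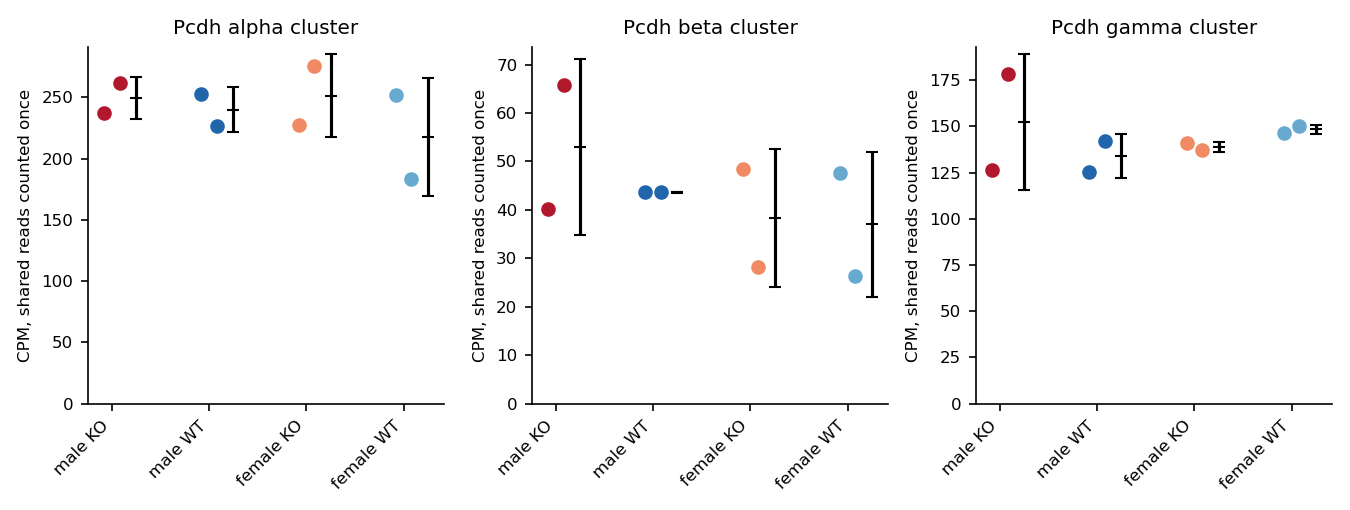
Total CPM of each cluster per library with shared reads counted once, with KO left of WT in each sex and black marks for the group mean and SD (n = 2). KO and WT points overlap except in the gamma panel for females. The alpha and gamma totals can be too low, since reads specific to the lowest member were subtracted from the others.

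Genes that act on or with the clusters were set beside them, from lists chosen with earlier results known. Of 22 tested regulators of the locus, such as CTCF, cohesin subunits and chromatin or DNA methylation enzymes, 0 passed in either direction in any comparison by edgeR. An unadjusted edgeR p below 0.05 was reached by 2 of them in males and by 2 in females. Of all tested genes, 3.5% in males and 3.81% in females reached it, and at most 0.00454% passed in any comparison by edgeR. These shares stand beside each list of this paragraph. The 4 regulators with the highest mean were Mau2, which loads cohesin, the cohesin subunits Smc1a and Smc3, and Tet3, which oxidises methylated cytosine. Mau2 stood at 88.2, 106, 78.0 and 106 CPM in the KO libraries, against 155, 121, 91.5 and 118 CPM in the WT libraries. Its log2 fold change was -0.5 in males (SE 0.24) and -0.18 in females (SE 0.24). Of 20 genes whose proteins bind or process protocadherins, 0 passed in either direction, with an unadjusted edgeR p below 0.05 for 1 in males and 0 in females, and the 4 highest were Ret, Cyfip2, Brk1 and Nckap1. Ret, a receptor kinase that C-LTMRs are known to use and that binds protocadherins, stood between 749 and 1403 CPM in the 8 libraries. Of 46 tested genes between or within 500 kb of the clusters, 0 passed in either direction, with an unadjusted edgeR p below 0.05 for 1 in each sex, and their median log2 fold change was -0.1 in males and -0.07 in females. The 4 highest of these were Rnf14, Ndufa2, Hars and Rell2. This list also holds tested gene models that overlap member exons, such as Gm37446 and BC037039, where a read was counted in both genes.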

How the data were processed

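The members and lists were chosen with earlier results of these data known. The deposited file holds read counts per gene for 8 libraries, made by the authors with featureCounts 1.6.1 on exons of Ensembl release 97 (GRCm38), unstranded, with multi-overlapping reads counted in each gene, per the file headers. The aligned files are named as unique alignments, per the file headers, so reads that matched several near-identical members equally may be missing. No header or label used here names the aligner. The authors' deposited tables hold log2 fold changes with standard errors, and p-values before and after adjustment, for genes past their threshold.

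Per the labels' protocols, cDNA was amplified by SMART-Seq v4 and tagmented with Nextera XT, without molecular identifiers. The submitters' processing notes name DESeq2 1.14.1, bcl2fastq 2.17.1.14 and Subread 1.6.4.

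Genes were kept by filterByExpr of edgeR 4.0.16 (R 4.3.3), leaving 22013, and scaled by TMM. The quasi-likelihood F test with robust estimation was fitted to 4 groups over 8 libraries, with 4 residual degrees of freedom, and as sex plus genotype across both sexes. P-values were two-sided and adjusted by Benjamini-Hochberg, with a threshold of 0.05. The SE given with edgeR values is the absolute log2 fold change divided by the square root of F. DESeq2 1.42.0 was an alternative. Its SE comes from its own fit, so SE of edgeR and of DESeq2 are not the same measure. The tests were tried on simulated counts. Floors were 3 counts. CPM per kilobase divides own reads by own exon length. Members named were the 4 highest of each cluster, the C-type genes, those that passed, and the 3 with the lowest p in each comparison. Exceptions, chosen after their values were seen, were Pcdha1, Pcdha8, Pcdhga4, Pcdhga6, Pcdhga8, Pcdhgb1, Pcdhgb4, Pcdhgb6, Pcdhgb8, both Pcdha11 genes and the overlapping gene models. Libraries of different groups were not treated as paired by replicate number in the main fit. Correlations of their deviations lay between -0.102 and 0.109 over the tested genes, which cannot exclude a pairing.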

Additional observations from a re-analysis of the deposited data

Results flagged for a closer look

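In 4 members the KO libraries moved one way in males and the opposite way in females, with no overlap between KO and WT in either sex. As counted, 4.77% of all 22013 tested genes did so, against 1 of 57 members (1.75%), and 4 members (7.02%) did on own CPM, where beta counts are the same. The share of all tested genes is as counted and is not matched to own CPM. On CPM as counted this was Pcdhb2, lower in male KO and higher in female KO, with 2 and 3 counts in the female KO libraries, against 0 and 2 in the female WT libraries. These female counts are at or under the floor of 3, so no direction can be read from them. The difference between the sexes in its KO effect had a log2 value of -5.12 (edgeR adjusted p = 1).

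On own reads it was Pcdhga12 and Pcdhgb6, higher in male KO and lower in female KO, and Pcdhga6, lower in male KO and higher in female KO. The difference between the sexes was 2.94 for Pcdhga12, 4.71 for Pcdhgb6 and -5.95 for Pcdhga6 on the log2 scale, each with an edgeR adjusted p of 0.979. Pcdhgb6 own reads stood at 3.12 and 3.31 CPM in male KO, against 0.222 and 1.52 CPM in male WT, and at 0.294 and 0.393 CPM in female KO, against 3.81 and 1.09 CPM in female WT. Pcdhga6 stood at 0.0693 and 1.26 CPM in male KO, against 1.82 and 1.93 CPM in male WT. In females it stood at 1.21 and 2.53 CPM in KO, against 0.0706 and 0.095 CPM in WT. It had 4 own counts in male KO 1, and 4 and 6 in the female WT libraries. These lie within 10 counts of the lowest gamma member, so its log2 value depends on the count subtracted.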

How the results depend on the processing

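No member passed by edgeR in any of the 4 comparisons under RLE size factors, without the filter on low counts, without robust estimation, with the replicate number as a block, with shared reads subtracted, or without any 1 library (0 to 0 members), nor in males or females with only the 4 libraries of that sex, a fit run for those comparisons. DESeq2 gave 1 in males and 1 in females. The replicate block gave 0 members in each comparison, and pairing rests on the numbers only. With shared reads subtracted, the members' median log2 fold change was 0.71 in females, 0.34 across both sexes and -0.07 for the difference between the sexes. On counts as deposited, where the female median was -0.14, leaving out single libraries moved it between -0.22 and -0.03. As deposited, the male median moved between -0.28 and 0.26, that across both sexes between -0.2 and 0.03, and the difference between -0.16 and 0.38. The lowest and highest male values came without male KO 2 and without male KO 1. Cluster totals without single libraries ranged from -0.02 to 0.13 (alpha, males), from -0.0015 to 0.45 (alpha, females), from -0.12 to 0.59 (beta, males), from -0.39 to 0.54 (beta, females), from -0.08 to 0.42 (gamma, males) and from -0.11 to -0.07 (gamma, females). Female WT 2 and female WT 1 set the ends for alpha in females. On counts as deposited, Pcdhac2 changed sign in males without male KO 2 (-0.00015, up to 0.13 without another library). In females, also as deposited, it did so without female KO 2 (-0.02) or female WT 2 (-0.04, up to 0.37 without female WT 1). Own counts were not fitted without single libraries. With shared reads subtracted, alpha and gamma members could change sign: the female value was 1.13 for Pcdha12, against -0.11 as counted, 0.67 for Pcdhgc4, against -0.1, and 1.52 for ENSMUSG00000007440, against -0.14 (edgeR). The causes were not tested. Depth sets a floor of 0.0421 to 0.0587 CPM (3 counts).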

Other observations

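Among the protocadherins outside the clusters, Pcdh9, which is encoded alone, was higher in all 4 KO libraries than in all 4 WT libraries. This held for 1 of the 10 tested genes of that list, chosen with earlier results known, and for 0.936% of all tested genes. Pcdh9 stood at 49.8 and 17.7 CPM in the male KO libraries, against 9.32 and 10.4 CPM in male WT. Its highest value was in male KO 1, where the summed myelinated afferent markers were also highest. Female KO libraries held 20.3 and 21.7 CPM, against 8.54 and 9.83 CPM in female WT. The log2 fold change across both sexes was 1.48 (SE 0.34, unadjusted p = 0.00256), which did not pass over all tested genes (edgeR adjusted p = 1). Of the 10 tested genes of that list 0 passed in either direction in any comparison by edgeR, and 1 had an unadjusted edgeR p below 0.05 in each sex. Of all tested genes at most 0.00454% passed, and 3.5% in males and 3.81% in females had such an unadjusted p. Pcdh1, the highest of the list, stood at 10.8, 35.2, 51.5 and 44.2 CPM in the KO libraries, against 46.8, 39.8, 36.6 and 39.2 CPM in the WT libraries. Pcdh10 had a log2 fold change of -0.14 (SE 0.47) in males. Pcdh7 stood at 42.5 and 5.78 CPM in the male KO libraries, against 5.44 and 3.18 CPM in the male WT libraries, so its value of 2.48 (SE 1.78) rests mostly on male KO 1.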
